A study of Mus musculus with 28 samples.

Results

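The respiratory chain of mitochondria is built from subunits of both the nuclear and the mitochondrial genome, and the 91 genes described here are its nuclear-encoded part, with a few relatives that share their name stem. They were taken by symbol from the 17690 gene rows of the study's count tables: names starting with Nduf followed by a, b, c, s or v, with Uqcr, with Cox followed by a digit between 4 and 8, or with Atp5, and the names Sdha, Sdhb, Sdhc and Sdhd. The rule reads names only, though it was set with earlier results of these data known. By complex, 36 are subunits of complex I, 4 of complex II, 8 of complex III, 19 of complex IV and 15 of complex V. The name stems also bring in 7 assembly factors of complex I (Ndufaf1 to Ndufaf7) and the pair Atp5s and Atp5sl, so that 82 of the 91 are subunits. Of the 91 genes, 80 had a row in all 28 tables. The tables held 0 rows of mitochondrially encoded genes, so the products of mitochondrial DNA that sit in complexes I, III, IV and V were not analysed here.

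In the respiratory chain, complexes I and II pass electrons from NADH and succinate to ubiquinone, complex III hands them to cytochrome c, and complex IV reduces oxygen. Complexes I, III and IV pump protons across the inner membrane, and complex V, the ATP synthase, makes ATP from the resulting gradient. In the adult neurogenic niche, quiescent neural stem cells (NSCs) are known for their reliance on fatty acid oxidation and glycolysis, and a shift towards oxidative phosphorylation has been described along the lineage to neuroblasts.

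The cells came from the mouse subependymal zone, the stem cell niche along the lateral ventricles, and were sorted singly into plates and read by SORT-seq, a form of CEL-seq that tags each transcript at its 3′ end, so that a level counts molecules and needs no division by length. There were 7 sorts with 4 libraries each. Mixed day-60 cells and day-60 tdTomato cells came from Ki67-iresCreER +/ki Rosa-tdTomato +/ki mice 60 days after 5 mg of tamoxifen, which switches on tdTomato in cells that express Mki67, a gene of dividing cells, and in their progeny. The mixed sort drew on the subependymal zone or the olfactory bulb and also held cells stained for O4, an antigen of oligodendrocytes. Day-2 tdTomato cells came from the same line 2 days after tamoxifen. Ki67-RFP cells came from Ki67-tagRFP ki/ki mice, and carry a red protein fused to the product of Mki67. GLAST/EGF cells were taken with an antibody to the glial transporter GLAST and/or by binding of labelled EGF, and Prom1/CD24 cells with antibodies to Prom1 and CD24. Troy-GFP cells came from Troy-GFPiresCreER +/ki mice, in which GFP marks cells that express Troy (Tnfrsf19), used by the study to find NSCs. All animals are labelled Bl/6, at 16 to 19 weeks of age in the day-60 sort, 8 to 19 weeks in the mixed sort and 8 to 10 weeks in the others. No label gives the number of animals behind a library. A sort's 4 libraries of 96 wells would fill a single 384-well plate, so the tests may rest on technical spread alone.

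Of 2688 wells, 1789 held at least 1000 estimated transcripts and counted as cells, between 64 in the Prom1/CD24 sort and 349 in the day-60 sort. Library totals over cells lay between 253051 and 572793 transcripts outside the Prom1/CD24 sort, and between 43149 and 106429 within it, so Prom1/CD24 values are the least precise. Cell classes were rebuilt by clustering without the 91 genes, without ribosomal protein genes and without cell cycle genes, and carry the suffix "-like". The markers of the NSC-like class are shared with astrocytes, so that class does not separate stem cells from astrocytes. Transcripts of Y-linked genes summed to 290.4 to 407 CPM (transcripts of a gene per 1000000 gene transcripts of the library) in the GLAST/EGF and Troy-GFP libraries and stood at 0 in the other 20, so comparisons across that line also differ in sex, and sex and sort cannot be told apart there.

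Summed over the 91 genes, the share of all gene transcripts was highest in freshly labelled and dividing cells and lowest in Troy-GFP cells. It was 1.63 ± 0.0732% in the mixed day-60 sort, 1.49 ± 0.3004% in day-60 tdTomato cells, 2.23 ± 0.0609% in day-2 tdTomato cells, 2.00 ± 0.0738% in Ki67-RFP cells, 1.62 ± 0.0727% in GLAST/EGF cells, 1.86 ± 0.142% in Prom1/CD24 cells and 1.32 ± 0.0523% in Troy-GFP cells (mean ± SD, n = 4 libraries each). The day-2 libraries lay above every library of the other sorts in this pooled share. As medians of single cells, day-2 libraries ran from 1.90% to 2.08% and Ki67-RFP libraries from 1.86% to 2.02%, and these overlapped, as did the shares of cells thinned to 1000 transcripts (2.03% to 2.12% in day-2 and 1.81% to 2.05% in Ki67-RFP libraries). Prom1/CD24 libraries overlapped with those of both neighbours in the order, the Ki67-RFP and mixed day-60 sorts, and mixed day-60 libraries overlapped with GLAST/EGF libraries. Day-60 libraries ran from 1.22% to 1.92% and so spanned the whole range of the mixed day-60, GLAST/EGF and Troy-GFP sorts. The genes gave 84.997 transcripts per cell in the mixed day-60 sort, 83.9 in day-60 cells, 121 in day-2 cells, 136 in Ki67-RFP cells, 125 in GLAST/EGF cells, 96.7 in Prom1/CD24 cells and 82.6 in Troy-GFP cells. In sums of this kind, fewer cells of a type and less RNA per cell cannot be told apart. The share of cytosolic ribosomal protein transcripts was also highest in the 2 top sorts, at 2.45% in day-60, 10.7% in day-2, 9.53% in Ki67-RFP and 3.46% in Troy-GFP cells.

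**Figure D1:**
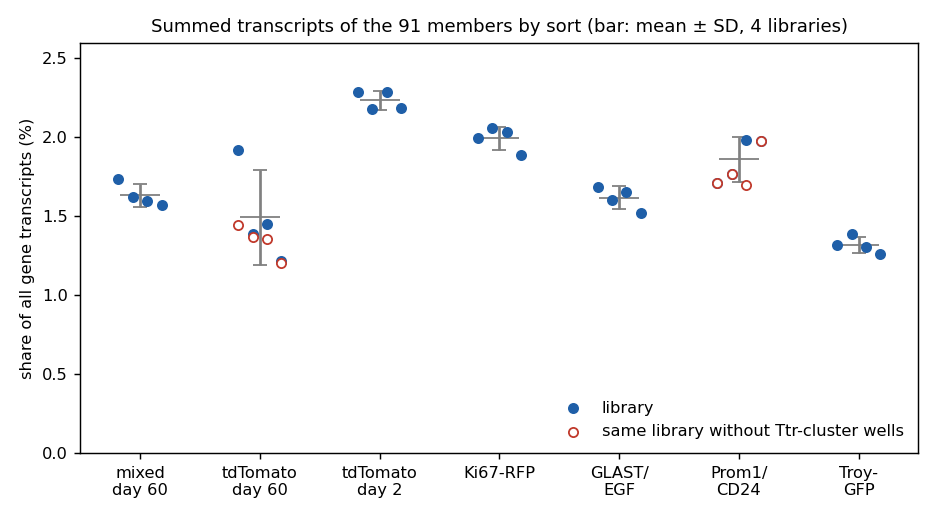
Share of all gene transcripts (%) that came from the 91 genes, per sort; filled points are libraries, bars are mean ± SD over 4 libraries, and open points show day-60 and Prom1/CD24 libraries without the wells of the cluster led by Ttr. Day-2 libraries stand highest and Troy-GFP libraries among the lowest, and day-60 library 1 drops to 1.45%, beside the other 3 day-60 libraries, once those wells are left out.

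The complexes did not take part equally. Complex V supplied 0.729 ± 0.0156% of gene transcripts in day-2 cells and 0.708 ± 0.00799% in Ki67-RFP cells, against 0.434 ± 0.0164% in Troy-GFP cells (SD, n = 4 each). Complex IV gave 0.551 ± 0.0242% in day-2 cells and 0.468 ± 0.0224% in Ki67-RFP cells, against 0.269 ± 0.0132% in Troy-GFP cells. Complex II, the only one of the 5 that also belongs to the citric acid cycle and that has no mitochondrially encoded subunit, stayed between 0.0567% in day-2 cells and 0.0463% in Ki67-RFP cells across all 7 sorts, with SDs up to 0.00807 percentage points. The most abundant members, by their mean over the 28 libraries, were Atp5b (687 CPM), the catalytic β subunit of complex V, and Atp5g3 (630.2 CPM), which codes for its proton-carrying c subunit. Atp5a1, the α subunit, followed within that complex at 517 CPM. In complex IV, Cox8a (629 CPM), Cox6a1 (534 CPM) and Cox6c (471 CPM) led, all 3 of them small structural subunits. Complex III was led by the hinge protein gene Uqcrh (327 CPM), by Uqcrq (249.1 CPM) and by Uqcrfs1 (236 CPM), which codes for the Rieske iron-sulfur protein. Complex I was led by accessory subunits, Ndufc2 (464 CPM), Ndufa12 (268 CPM) and Ndufa7 (229 CPM). Complex II was led by the catalytic Sdha (191 CPM) and the iron-sulfur subunit Sdhb (142 CPM), before the membrane anchor Sdhc (106 CPM).

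Reads of some members could stem from other genes, since 18 of the 91 have at least 1 other gene with 95% identity or more over at least 75 of the last 300 transcript bases. Atp5l has 12 such neighbours, Cox7c 4, Atp5g2 and Uqcrb 3 each, Atp5h 2, and Atp5j, Atp5j2, Atp5k, Atp5o, Cox5a, Cox6a1, Cox6c, Ndufb3, Ndufb11, Ndufs3, Ndufs5, Uqcr11 and Uqcrh 1 each. How the counting treated reads that match several places is not given in the sources used here, so the levels of these 18 genes are uncertain. Cox7c had 106 transcripts in all cells together and Ndufs5 had 1.

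Tissue-restricted isoforms were rare. Over all cells, the estimated transcripts came to 12 for Cox4i2, the lung-enriched form of subunit 4, to 7.02 for Cox6a2 and 46.1 for Cox7a1, both heart and muscle forms, to 110.4 for the testis form Cox6b2, and to 40.5 for Cox8b, a form of subunit 8 known from muscle and brown fat. Their widely expressed counterparts Cox4i1, Cox6a1, Cox7a2, Cox6b1 and Cox8a had between 3352 and 6755 transcripts each. Ndufa4l2, a relative of Ndufa4 known as a hypoxia target, had 32.5 transcripts in 12 wells, and it reached 164 CPM in library 1 of the Prom1/CD24 sort.

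One cluster of 12 wells stood out for its share of respiratory chain transcripts. Its leading genes were Ttr, 1500015O10Rik, Enpp2, Igf2 and Kcnj13, none of the marker lists used here covers it, and it is left unnamed. Of its wells, 7 came from library 1 of the day-60 sort, 1, 2 and 1 from day-60 libraries 2, 3 and 4, and 1 from library 3 of the Prom1/CD24 sort. The 91 genes held 4.00% of its pooled gene transcripts, with a median over cells of 4.30% and quartiles of 3.99% and 4.78%. The next clusters in order were the mature neuron-like ones led by Th (2.54%) and by Snhg11 (2.36%), and the lowest were an unnamed cluster led by Cd74 (1.08%) and the microglia-like one (1.10%). Cox8a stood at 2142 CPM in the 12 wells together, against 605 CPM in all other cells. Atp5g1 stood at 1403 CPM there, against 246 CPM elsewhere, and the accessory complex I gene Ndufa1 at 718 CPM, against 105.1 CPM. Of the 40.5 transcripts of Cox8b, 33.4 lay in 8 of these 12 wells, and the gene was found in 14 wells in all. Cox6b2 had 215 CPM in them, against 7.76 CPM elsewhere. Atp5g2, at 441 CPM in the 12 wells against 496 CPM in the other cells, was not among the genes that stood higher there. These cells touch the sort level: without them the day-60 share was 1.35 ± 0.101% (SD, n = 4 libraries), with library 1 at 1.45% in place of 1.92%.

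By the means of each sort, mature neuron-like, progenitor-like and neuroblast-like cells stood above NSC-like and oligodendrocyte-like cells, and the order among the first 3 classes differed with the sort. In mature neuron-like cells of the mixed sort the 91 genes made up 2.49 ± 0.220% of gene transcripts, against 1.32 ± 0.0918% in oligodendrocyte-like cells of the same libraries (SD, n = 4). Neuroblast-like cells, the migrating young neurons, held 1.97 ± 0.120% in the day-2 sort and 1.93 ± 0.124% in the Ki67-RFP sort. Progenitor-like cells, which carry transit-amplifying and division markers, held 2.57 ± 0.156% in the day-2 sort, 2.10 ± 0.0781% in the Ki67-RFP sort, 1.80 ± 0.0403% in the GLAST/EGF sort and 1.62 ± 0.110% in the Troy-GFP sort. Within this class the day-2 libraries (2.35% to 2.72%) and the Ki67-RFP libraries (2.00% to 2.19%) did not overlap, nor did the Ki67-RFP and GLAST/EGF libraries (1.74% to 1.82%), nor the GLAST/EGF and Troy-GFP libraries (1.45% to 1.69%). NSC-like cells stayed lower and closer together, at 1.33 ± 0.103% in the mixed sort (n = 3 libraries), 1.35 ± 0.118% in the day-60 sort, 1.31 ± 0.105% in the GLAST/EGF sort and 1.20 ± 0.0758% in the Troy-GFP sort. Their libraries overlapped, though 3 of the 4 day-60 libraries (1.39% to 1.42%) lay above every Troy-GFP library (at most 1.25%). The clusters behind a class differed between sorts: the cluster led by Top2a held 27 of 44 progenitor-like cells in the day-2 sort, 94 of 163 in the Ki67-RFP sort, 22 of 71 in the GLAST/EGF sort and 6 of 32 in the Troy-GFP sort. The cluster led by Agt held 20 of 25 NSC-like cells in the mixed sort, 33 of 272 in the day-60 sort, 12 of 72 in the GLAST/EGF sort and 9 of 151 in the Troy-GFP sort. A cluster of 140 cells led by Thbs4, 63 of them Troy-GFP cells, was left unnamed and lies outside the NSC-like class. Its pooled share was 1.44%.

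Depth differed between the classes and is given here as a measured fact. In the day-2 sort neuroblast-like cells held 3339 and progenitor-like cells 10882 transcripts per cell, and in the GLAST/EGF sort progenitor-like cells held 12672 and NSC-like cells 4189. Respiratory chain transcripts per cell therefore came to 65.6 in neuroblast-like and 281 in progenitor-like cells of the day-2 sort, and to 227 in progenitor-like and 54.4 in NSC-like cells of the GLAST/EGF sort. With every cell thinned to 1000 transcripts, the shares were 1.92% in neuroblast-like and 2.61% in progenitor-like cells of the day-2 sort, and 1.80% in progenitor-like and 1.31% in NSC-like cells of the GLAST/EGF sort.

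**Figure D2:**
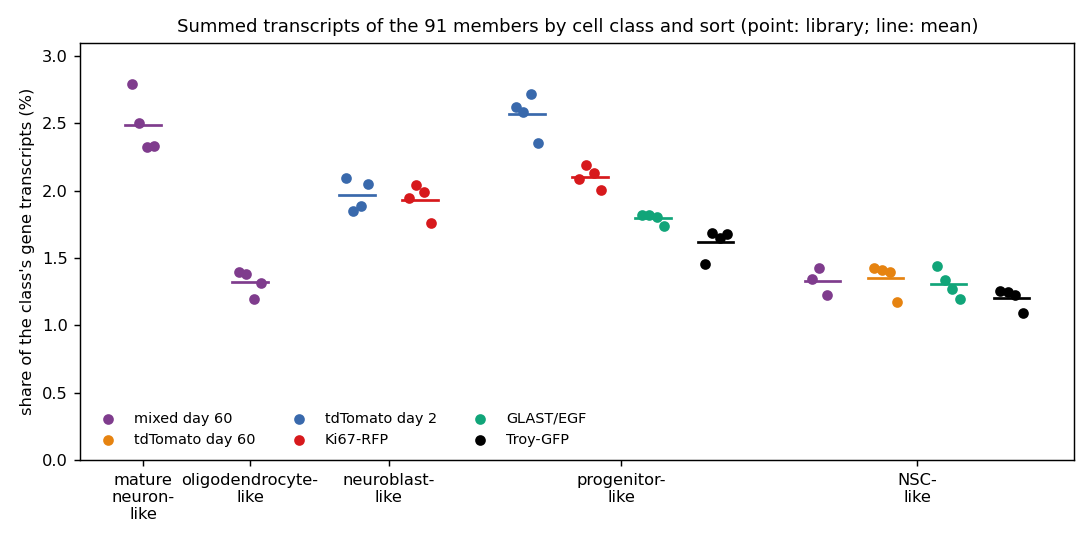
Share (%) of a class's gene transcripts from the 91 genes, per cell class and sort; points are libraries, coloured by sort, and lines are means. Mature neuron-like libraries lie above 2.3%, oligodendrocyte-like and NSC-like libraries at or below 1.44%, and progenitor-like libraries spread from 1.45% to 2.72% with their sort. Prom1/CD24 library 2, with 6 NSC-like cells at 1.60%, is not drawn, since classes with too few libraries in a sort were left out.

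Ki67-RFP cells were set against Troy-GFP cells to see how the respiratory chain differs between cells that divide and cells that carry the stem cell reporter. Among the 79 of 91 genes that passed the filter on low values, 46 were higher and 3 lower in Ki67-RFP cells (limma voom, adjusted p below 0.05 over 8396 genes), where 28.3% of all genes tested were called higher and 31.5% lower. The median log2 fold was 0.36 over the 79 genes and -0.02 over all genes. The rise sat in complexes V and IV and in the small subunits of complex III: 14 of 15 complex V genes, 10 of 11 complex IV genes and 5 of 5 small complex III genes were higher and none lower. Accessory subunits of complex I were higher in 15 of 28 cases and lower in 1. The 7 core subunits of complex I, which form its electron-carrying arm, had a median of -0.20 with 2 higher, complex II had 0 of 4 higher and 1 lower, and the core and Rieske proteins of complex III had 0 of 3 higher and 1 lower.

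Cox7a2, the widespread form of small complex IV subunit 7a (gene at chr9:79755361-79759878), had the largest fold. It stood at 474, 444, 505 and 419 CPM in the 4 Ki67-RFP libraries, against 122, 169, 175 and 143 CPM in the 4 Troy-GFP libraries. Every Ki67-RFP library was above every Troy-GFP library, with a log2 fold of 1.48 ± 0.14 (SE; adjusted p = 4.9e-10). Atp5e, the ε subunit in the stalk of the ATP synthase, stood at 587, 519, 533 and 475 CPM in Ki67-RFP and 168, 209, 236 and 227 CPM in Troy-GFP libraries, again without overlap, and its log2 fold was 1.22 ± 0.13 (SE; adjusted p = 5.3e-09). Cox7a2l (gene at chr17:83501918-83517330) is a relative of Cox7a2 that has been linked to supercomplexes of complexes III and IV. It had 245, 222, 252 and 196 CPM in Ki67-RFP and 86.9, 76.1, 106 and 97.0 CPM in Troy-GFP libraries. Its libraries did not overlap either, and the log2 fold was 1.21 ± 0.16 (SE; adjusted p = 2.5e-07). On the other side, Sdha, the flavoprotein of succinate dehydrogenase, had 139.7, 159, 167 and 119 CPM in Ki67-RFP libraries, against 209, 189.7, 163 and 208 CPM in Troy-GFP libraries, ranges that overlapped by 1 library on each side, with a log2 fold of -0.53 ± 0.15 (SE; adjusted p = 0.0029). Ndufa8, an accessory complex I subunit that faces the intermembrane space, fell by 0.47 on the log2 scale (adjusted p = 0.015), and Uqcrc2, a core protein of complex III, by 0.32 (adjusted p = 0.044). The catalytic ATP synthase genes moved little by comparison, with log2 folds of 0.36 ± 0.10 for Atp5b and 0.36 ± 0.10 for Atp5a1 (SE; both called).

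The genes of one and the same protein were all higher in this comparison, with folds of different size. Atp5g1, Atp5g2 and Atp5g3 code for precursors of an identical mature c subunit, the proton-carrying ring of complex V, and differ in their import sequences. Atp5g2 stood at 788, 794, 768 and 867 CPM in Ki67-RFP and 318, 348, 365 and 414 CPM in Troy-GFP libraries, a log2 fold of 1.04 ± 0.11 (SE; adjusted p = 4.2e-09). Atp5g1 stood at 364, 328, 340.1 and 333 CPM in Ki67-RFP and 142, 162, 183 and 171 CPM in Troy-GFP libraries, a log2 fold of 0.93 ± 0.13 (SE; adjusted p = 5.4e-07). For both genes the sorts were separated by a wide gap. Atp5g3 stood at 674, 707, 704 and 662 CPM in Ki67-RFP and 521, 539, 519 and 515 CPM in Troy-GFP libraries, close to each other though without overlap, and its log2 fold was 0.26 ± 0.10 (SE; adjusted p = 0.022). The difference between the paralogues' folds was not tested. In the GLAST/EGF sort, progenitor-like over NSC-like cells gave a log2 fold of 1.20 ± 0.20 (SE; adjusted p = 3.0e-05) for Atp5g2, 0.90 ± 0.28 (SE; adjusted p = 0.0081) for Atp5g1 and -0.19 ± 0.17 (SE; adjusted p = 0.35) for Atp5g3. In the mixed sort, Atp5g3 instead had the largest fold of the 3 between mature neuron-like and oligodendrocyte-like cells, 1.42 ± 0.13 (SE; adjusted p = 2.1e-12), with 0.65 ± 0.18 (SE; adjusted p = 0.0019) for Atp5g1 and 0.19 ± 0.16 (SE; adjusted p = 0.32) for Atp5g2.

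The upstream sequences of these paralogues are shown because the 3 genes of one protein differ in their levels, together with those of the subunit 7a pair and of Cox6a1, which holds motifs of 2 factors. Each line gives the 120 bases before the first RefSeq transcript start listed for the gene (mm10, GRCm38.p6, minus strand in all 6 cases, written 5′ to 3′ on the gene's strand), and capitals mark a motif match (NRF1 in Atp5g2 and near the 5′ end of Cox6a1, ETS on the opposite strand near the 3′ end of Cox6a1). For Cox7a2l the listed start lies inside the gene span given before, so its stretch is within the gene and not in front of it.
Atp5g1, chr11:96075632-96075751: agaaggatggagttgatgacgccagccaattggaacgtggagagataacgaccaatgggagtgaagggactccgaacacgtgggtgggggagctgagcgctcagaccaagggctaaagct
Atp5g2, chr15:102671048-102671167: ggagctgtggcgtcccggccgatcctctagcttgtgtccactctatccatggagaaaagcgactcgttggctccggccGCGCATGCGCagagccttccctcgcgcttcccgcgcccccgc
Atp5g3, chr2:73911327-73911446: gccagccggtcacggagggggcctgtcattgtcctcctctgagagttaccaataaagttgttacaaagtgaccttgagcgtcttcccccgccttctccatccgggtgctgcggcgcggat
Cox7a2, chr9:79759854-79759973: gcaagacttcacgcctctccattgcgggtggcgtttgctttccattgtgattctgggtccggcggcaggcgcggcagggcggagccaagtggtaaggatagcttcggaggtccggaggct
Cox7a2l, chr17:83514334-83514453: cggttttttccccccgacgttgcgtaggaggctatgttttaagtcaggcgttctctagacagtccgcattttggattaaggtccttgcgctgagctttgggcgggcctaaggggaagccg
Cox6a1, chr5:115348959-115349078: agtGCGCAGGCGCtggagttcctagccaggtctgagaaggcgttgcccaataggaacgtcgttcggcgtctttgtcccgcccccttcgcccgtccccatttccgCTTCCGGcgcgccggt
Nuclear respiratory factor 1 (NRF1) and ETS-family factors are known as regulators of nuclear respiratory genes. Searched on both strands were the NRF1 consensus, of which the capitals in Atp5g2 are a match on both strands, and the letters CCGGAAG for ETS factors, AAGATGGC for YY1 and TATAAA for the TATA box. The ETS letters end with the bases that open the YY1 letters, so these 2 motifs can overlap. In the 300 bases from 250 before to 50 after the start, 16 of the 68 subunit genes with a RefSeq promoter (23.5%) held the NRF1 motif, compared with 4.78% of 27025 genes. ETS letters stood in 15 of 68 (22.1%), compared with 9.12% of all genes, YY1 letters in 9 (13.2%), compared with 2.88%, and TATA letters in 7 (10.3%), compared with 14.2%. Atp5g2 holds the NRF1 motif within the printed stretch, Atp5g3 holds it 12 bases after its start, and Atp5g1 holds none of the 4 motifs in the window. Such matches are descriptions of letters, not of binding.

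**Figure D3:**
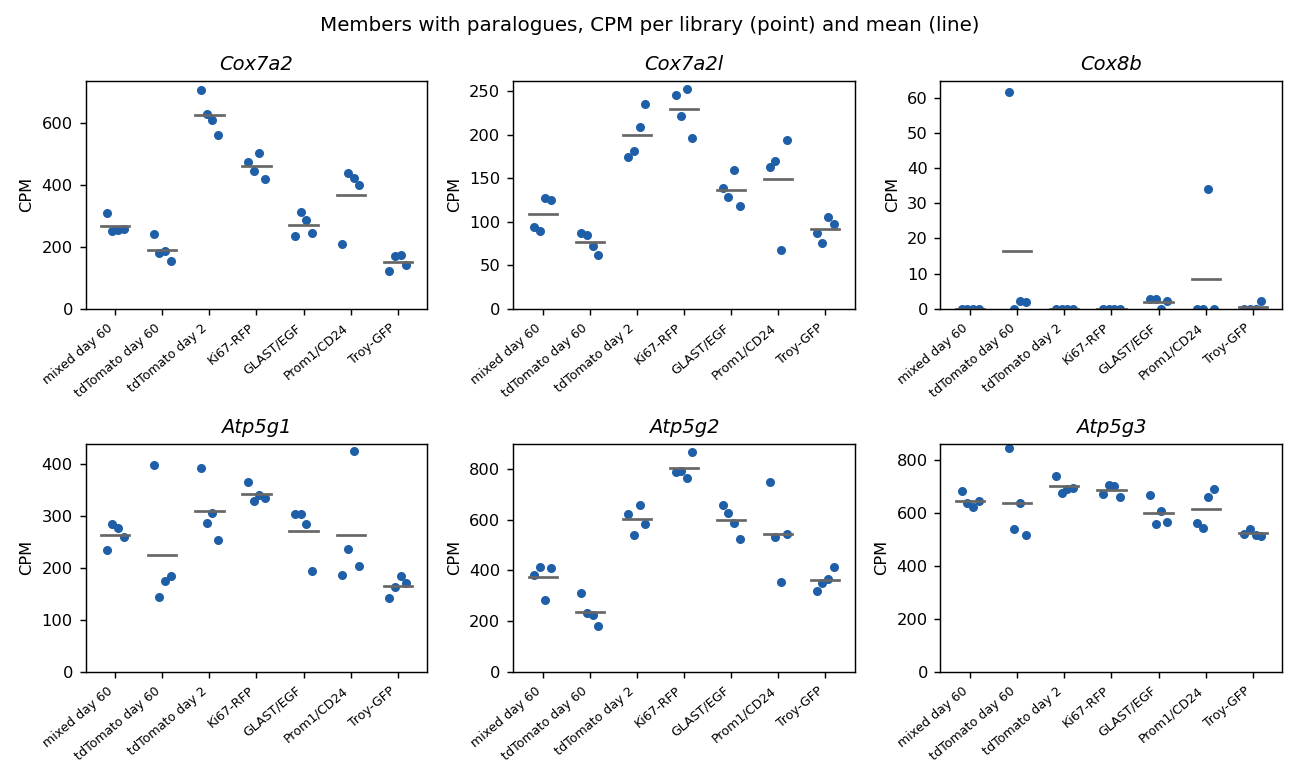
CPM per library (points) and mean (line) for 6 members with paralogues, in 7 sorts. Cox7a2, Cox7a2l and Atp5g2 stand high in day-2 and Ki67-RFP libraries, Atp5g3 varies less between sorts, and Cox8b is near 0 except in day-60 library 1 and Prom1/CD24 library 3.

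Several other measures moved with the Ki67-RFP against Troy-GFP comparison, and their part in it was not tested. The 15 NSC-like marker genes summed to 2002 to 2893 CPM in Ki67-RFP and 43692 to 45492 CPM in Troy-GFP libraries, and the 17 progenitor-like markers to a mean of 12407 CPM in Ki67-RFP and 3554 CPM in Troy-GFP libraries. The sorts also differ in sex and in mouse line. Of the 3 X-linked members, Cox7b was higher in Ki67-RFP cells (log2 fold 0.35 ± 0.13 SE, adjusted p = 0.022), while Ndufa1 (0.33 ± 0.18) and Ndufb11 (0.13 ± 0.14) were not called. Of the Troy-GFP libraries, 2 ran on another flow cell than the rest, and within the shared flow cell 38 genes were higher and 1 lower of 80.

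GLAST/EGF cells, of which 72 were NSC-like, 71 progenitor-like and 53 unnamed among 216, lay between those sorts in the summed share. Of 78 genes tested, 13 were higher and 0 lower than in Troy-GFP cells, where 14% of 7818 genes were called higher and 16.1% lower, so the share of members called higher (limma voom) was close to that of all genes and that called lower was below it. At an unadjusted p below 0.05, 20 were higher and 3 lower. The median log2 fold was 0.15 over the members and -0.003 over all genes. Ndufaf2, an assembly factor of complex I, had the largest fold (1.01 ± 0.34 SE, adjusted p = 0.030) at a low level, with 56.9, 58.5, 36.9 and 46.4 CPM in GLAST/EGF and 22.1, 37.1, 23.9 and 9.24 CPM in Troy-GFP libraries, where GLAST/EGF library 3 fell just under Troy-GFP library 2. Cox7a2 stood at 235, 312, 287 and 246 CPM in GLAST/EGF libraries, all above the Troy-GFP libraries given before, and its log2 fold was 0.73 ± 0.15 (SE; adjusted p = 0.0013). Atp5e stood at 413, 379, 344 and 306 CPM in GLAST/EGF libraries, also clear of the Troy-GFP range, with a log2 fold of 0.68 ± 0.14 (SE; adjusted p = 0.0012). By complex, 5 of 15 genes of complex V, 5 of 11 of complex IV and 2 of 8 of complex III were higher, and 0 of 35 of complex I. This comparison shares the Troy-GFP libraries with the one before, and the NSC-like marker sum was 18057 to 21832 CPM in GLAST/EGF and 43692 to 45492 CPM in Troy-GFP libraries, whose part was not tested. The count rests on single libraries: it was 8 without GLAST/EGF library 1, 7 without GLAST/EGF library 3, and 8 without Troy-GFP library 3 or 4, and it was 8 of 77 within the shared flow cell.

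Inside the GLAST/EGF sort, progenitor-like cells were set against NSC-like cells of the same libraries, with 71 and 72 cells, so that mouse line, age and library are shared. Cells were taken by GLAST and/or EGF, so the classes may differ in sort gate, which the library block does not remove. Of 70 genes tested, 13 were higher and 6 lower, where 32.4% of 3279 genes were called higher and 29.8% lower (limma voom, library as a block). Both shares of the members (13 and 6 of 70) lay below those of all genes. The members' median log2 fold was 0.29, and that of all genes 0.15. Of the 13 higher genes 5 are in complex I, 2 in complex III, 2 in complex IV and 4 in complex V, and of the 6 lower genes 3 are in complex I and 3 in complex III. Cox7a2 had 287, 383, 359.7 and 344 CPM in progenitor-like cells of the 4 libraries and 106, 165, 120.3 and 96.02 CPM in NSC-like cells, without overlap, and a log2 fold of 1.26 ± 0.29 (SE; adjusted p = 9.2e-04). Atp5g2 had 802, 811, 704 and 776 CPM in progenitor-like and 318, 289.9, 286 and 246 CPM in NSC-like cells, with a log2 fold of 1.20 ± 0.20 (SE; adjusted p = 3.0e-05). Ndufs6, a zinc-binding accessory subunit of complex I, had 143, 144, 141 and 108 CPM in progenitor-like and 58.7, 41.3, 30.02 and 42.6 CPM in NSC-like cells, and a log2 fold of 1.24 ± 0.38 (SE; adjusted p = 0.0081). Ndufs6 is 1 of 6 tested genes that met the filter in fewer than 2 libraries of one class, of which 3 were called, so its difference is no support.

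Lower in progenitor-like cells were Ndufs1, Uqcrfs1, Ndufv3, Uqcr10, Ndufb9 and Uqcrc2. Ndufs1, the largest core subunit of complex I and a carrier of iron-sulfur clusters, had 81.6, 118, 89.2 and 96.7 CPM in progenitor-like cells, against 141, 82.8, 271 and 107 CPM in NSC-like cells, a log2 fold of -0.94 ± 0.33 (SE; adjusted p = 0.019). The ranges overlapped for this gene, and library 3 held the highest NSC-like value. Uqcrfs1 had 205, 284, 205 and 142 CPM in progenitor-like and 437, 311, 241 and 289 CPM in NSC-like cells (-0.87 ± 0.24 SE, adjusted p = 0.0039), and Ndufv3, an accessory subunit of the NADH-binding module, had 81.6, 51.2, 81.7 and 68.3 CPM in progenitor-like and 106, 61.9, 151 and 107 CPM in NSC-like cells (-0.84 ± 0.33 SE, adjusted p = 0.033). The classes overlapped for both. The share of ribosomal protein transcripts was 8.52% in progenitor-like and 1.27% in NSC-like cells, and the split of calls followed the scaling: by library totals alone, which place the median of all genes at 0.36, 25 members were higher and 1 lower. Without library 1 of the sort, 9 were higher and 3 lower.

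**Figure D4:**
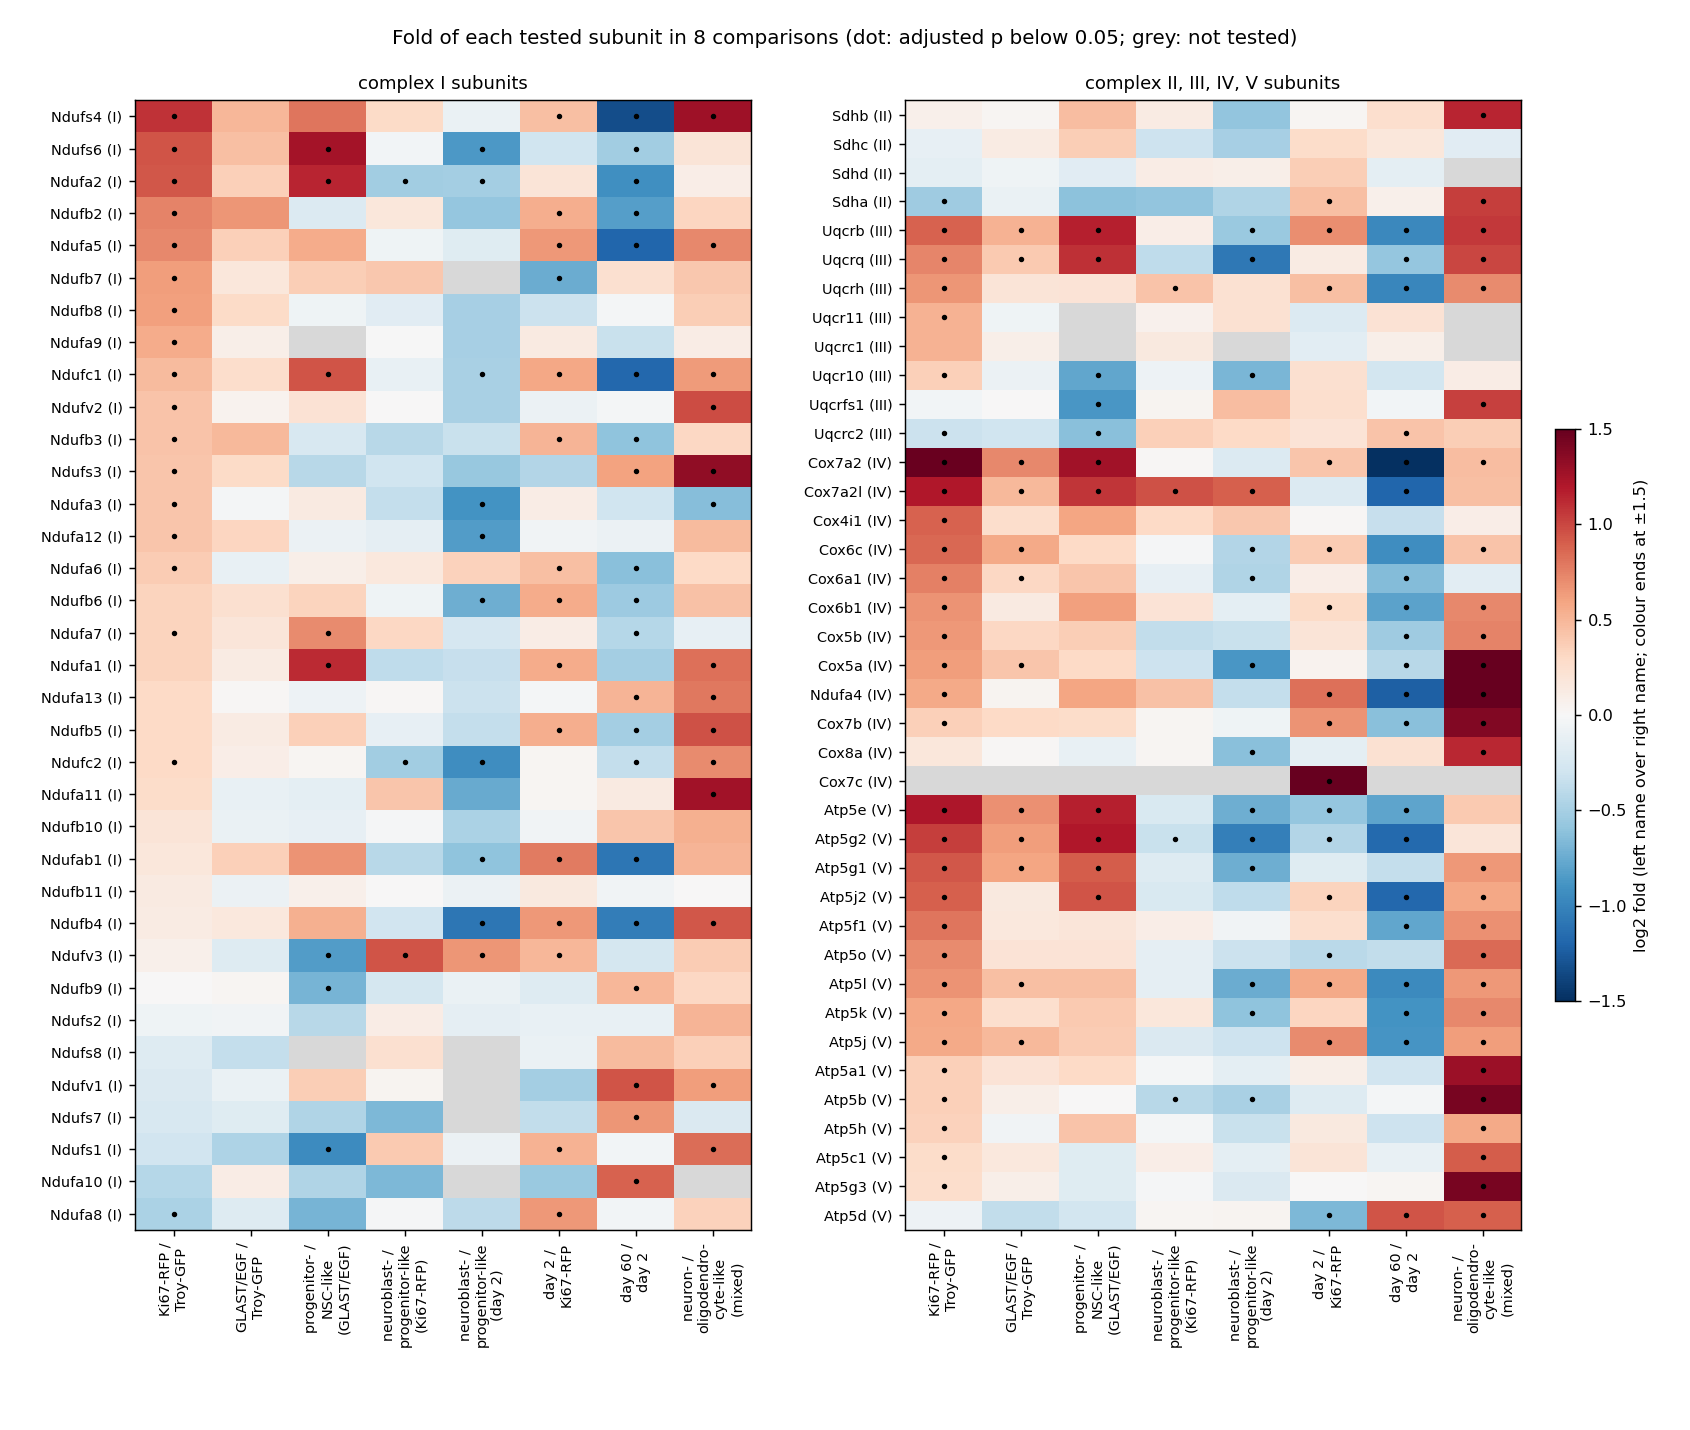
Log2 fold of every tested subunit in 8 comparisons, the left-named group over the right-named one, with colour ending at 1.5 in either direction; dots mark an adjusted p below 0.05 and grey marks genes not tested. Complexes IV and V are mostly red in Ki67-RFP over Troy-GFP and mostly blue in day 60 over day 2, and the mature neuron-like column is mostly red in each complex.

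Progenitor-like cells give rise to neuroblasts, and the step was compared within the Ki67-RFP and the day-2 sort separately. In the Ki67-RFP sort 3 of 75 genes were higher and 4 lower in neuroblast-like cells (7 of 75, where 14.7% of 4187 genes were called higher and 8.02% lower), and the members' median log2 fold was -0.02, with 0.07 over all genes. In the day-2 sort 2 of 67 genes were higher and 22 lower (where 21.4% of 2497 genes were called higher and 20.3% lower), with a median of -0.38 over the members and 0.01 over all genes. Among the tested genes, 3 in the Ki67-RFP sort and 6 in the day-2 sort met the filter in fewer than 2 libraries of one class. Of these, 0 and 1 were called, so that 1 call in the day-2 sort is no support. Of the 67 genes tested in both sorts, 6 were called in both, all in the same direction: 6 of the 7 called in Ki67-RFP cells and 6 of the 24 called in day-2 cells. Whether the step itself differed between the sorts was tested by the difference of the 2 contrasts, which called 0 of 71 members in either direction (limma voom; 0 higher and 10 lower at an unadjusted p below 0.05), where 1.52% of 3217 genes were called higher and 2.30% lower, with a median of -0.29 over the members and -0.01 over all genes. Neuroblast-like cells came mostly from the cluster led by Nrep in the day-2 sort (112 of 131) and from the cluster led by Dlx1as in the Ki67-RFP sort (51 of 75).

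Cox7a2l rose in neuroblast-like cells in both sorts. In the day-2 sort it had 208, 301, 267 and 263 CPM in neuroblast-like and 148, 94.7, 146 and 178 CPM in progenitor-like cells, a log2 fold of 0.89 ± 0.25 (SE; adjusted p = 0.0050). In the Ki67-RFP sort it had 399, 285, 336 and 325 CPM in neuroblast-like and 168, 181, 211 and 161 CPM in progenitor-like cells, a log2 fold of 0.95 ± 0.16 (SE; adjusted p = 3.2e-05). The classes did not overlap in either sort. Its relative Cox7a2 was not called in either sort, with log2 folds of -0.20 ± 0.16 in the day-2 and 0.02 ± 0.13 in the Ki67-RFP sort (SE). Ndufv3 (gene at chr17:31520115-31531331) was the other gene to rise in both, with log2 folds of 0.67 ± 0.26 (SE; adjusted p = 0.037) in the day-2 sort and 0.94 ± 0.20 (SE; adjusted p = 7.7e-04) in the Ki67-RFP sort. It had 191, 181, 201 and 129.8 CPM in neuroblast-like and 80.9, 108, 97.6 and 89.9 CPM in progenitor-like cells of the Ki67-RFP sort, without overlap. Uqcrh was higher in the Ki67-RFP sort (0.42 ± 0.14 SE, adjusted p = 0.024) and not called in the day-2 sort (0.23 ± 0.16).

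Atp5b, Atp5g2, Ndufa2 and Ndufc2 were lower in neuroblast-like cells in both sorts. Ndufc2, a subunit of the membrane arm of complex I, had 454, 311, 315 and 554 CPM in neuroblast-like and 866, 718, 826 and 724 CPM in progenitor-like cells of the day-2 sort, and 487, 469, 386 and 380.5 CPM in neuroblast-like and 694, 613, 683 and 606 CPM in progenitor-like cells of the Ki67-RFP sort. No library of one class reached the other class in either sort, and the log2 folds were -0.93 ± 0.18 (SE; adjusted p = 9.0e-05) in the day-2 and -0.52 ± 0.13 (SE; adjusted p = 0.0025) in the Ki67-RFP sort. Ndufa2, an accessory subunit of complex I, had log2 folds of -0.51 ± 0.20 (SE; adjusted p = 0.044) in the day-2 and -0.53 ± 0.17 (SE; adjusted p = 0.021) in the Ki67-RFP sort. Atp5b had -0.49 ± 0.15 (SE; adjusted p = 0.0094) in the day-2 and -0.42 ± 0.12 (SE; adjusted p = 0.0095) in the Ki67-RFP sort. Atp5g2 had -1.02 ± 0.18 (SE; adjusted p = 2.6e-05) in the day-2 and -0.34 ± 0.11 (SE; adjusted p = 0.028) in the Ki67-RFP sort. In the day-2 sort alone the largest falls were those of Ndufb4, a membrane-arm subunit of complex I, at -1.09 ± 0.23 (SE; adjusted p = 3.8e-04), and of Uqcrq, a small subunit beside cytochrome b in complex III, at -1.07 ± 0.20 (SE; adjusted p = 8.0e-05). Ndufb4 had 199.96, 120.05, 124 and 175 CPM in neuroblast-like and 353, 294, 382 and 317 CPM in progenitor-like cells there, and Uqcrq had 299.8, 150.2, 209.5 and 219 CPM in neuroblast-like and 642, 399, 466 and 379.9 CPM in progenitor-like cells, both without overlap. Neuroblast-like cells were the shallower class in both sorts. The day-2 count was 12 without library 2 or without library 3 of the sort, and the Ki67-RFP count was 4 without library 1.

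Day-2 tdTomato cells, which expressed Mki67 when tamoxifen was given, were also compared with Ki67-RFP cells, whose libraries are those set against Troy-GFP cells before. Of 80 genes tested 26 were higher and 6 lower (limma voom), where 14.3% of 6952 genes were called higher and 14.2% lower, and the median log2 fold was 0.14 over the members and 0.01 over all genes. Complex I contributed 14 higher and 1 lower of 35 genes, and complex IV 6 higher and 0 lower of 12. Complex V was divided, with 3 higher and 4 lower of 15. Ndufa4, now placed in complex IV, had 295, 204, 314 and 246 CPM in day-2 and 158, 165, 147 and 123 CPM in Ki67-RFP libraries, without overlap, and a log2 fold of 0.82 ± 0.15 (SE; adjusted p = 2.8e-04). Ndufab1, the mitochondrial acyl carrier protein that is also a complex I subunit, had 259, 204, 228 and 199.8 CPM in day-2 and 152, 138, 92.2 and 135 CPM in Ki67-RFP libraries and a log2 fold of 0.78 ± 0.16 (SE; adjusted p = 7.5e-04). Cox7c had a larger fold (1.72 ± 0.45 SE, adjusted p = 0.0053), but it met the filter in only 1 Ki67-RFP library, with 59.5, 22.2, 32.4 and 53.4 CPM in day-2 and 24.2, 7.76, 5.42 and 14.001 CPM in Ki67-RFP libraries, so its difference is no support. On the lower side stood Ndufaf7, a methyltransferase that acts on a core subunit during complex I assembly, with 79.3, 62.8, 75.6 and 96.1 CPM in day-2 and 149.8, 200.4, 156 and 147 CPM in Ki67-RFP libraries and a log2 fold of -1.06 ± 0.19 (SE; adjusted p = 1.8e-04). Ndufb7 had a log2 fold of -0.74 ± 0.21 (SE; adjusted p = 0.0093), and Atp5d, the δ subunit in the stalk of the ATP synthase, of -0.68 ± 0.16 (SE; adjusted p = 0.0026). The day-2 tables name no flow cell, so sequencing run and sort cannot be told apart. Mouse line differs too, and only the day-2 sort is labelled with tamoxifen, so these cannot be told apart from the sort either. The cell classes also differed, with 131 neuroblast-like and 44 progenitor-like cells in the day-2 sort and 75 neuroblast-like and 163 progenitor-like cells in the Ki67-RFP sort.

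Cells labelled by the same pulse and taken 60 days rather than 2 days later gave a smaller share to respiratory chain transcripts, in a comparison that shares the day-2 libraries with the one before. Of 79 genes 10 were higher and 34 lower in day-60 cells (limma voom), where 34.8% of 7648 genes were called higher and 32.8% lower, and the median log2 fold was -0.31 over the members and 0.01 over all genes. Complex IV had 0 higher and 9 lower of 11, complex V 1 higher and 7 lower of 15, and accessory subunits of complex I 3 higher and 14 lower of 28. The 7 core subunits of complex I had a median of 0.48, opposite in sign to that of the members. Of these 7 genes 3 were higher, near the share over all genes for so few genes, and 0 lower. Complex II had 0 of 4 called. Cox7a2 had 241, 179, 188 and 155 CPM in day-60 and 706, 628, 611 and 563 CPM in day-2 libraries, far apart, and a log2 fold of -1.52 ± 0.15 (SE; adjusted p = 8.4e-08). Ndufs4, an accessory complex I subunit whose loss causes a Leigh-like disease, had 100.5, 117, 80.9 and 66.1 CPM in day-60 and 303, 259, 219 and 268 CPM in day-2 libraries, also apart, and a log2 fold of -1.33 ± 0.19 (SE; adjusted p = 5.6e-06). Ndufaf2 fell by 1.32 on the log2 scale (adjusted p = 0.0013), at 21.6, 16.4, 23.4 and 24.7 CPM in day-60 and 107, 51.7, 51.3 and 56.9 CPM in day-2 libraries, but it met the filter in fewer than 2 day-60 libraries, so its difference is no support either.

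Higher in day-60 cells were Ndufaf7, Ndufv1 and Atp5d. Ndufv1, the core subunit that binds NADH and flavin, had 84.6, 109, 87.2 and 84.7 CPM in day-60 and 35.7, 70.2, 56.7 and 53.4 CPM in day-2 libraries, with a log2 fold of 0.94 ± 0.23 (SE; adjusted p = 0.0016). Ndufaf7 had 167, 192, 134 and 147 CPM in day-60 and 79.3, 62.8, 75.6 and 96.1 CPM in day-2 libraries, with a log2 fold of 1.21 ± 0.20 (SE; adjusted p = 3.7e-05). Atp5d had 218, 156, 198 and 184 CPM in day-60 and 111, 137, 103 and 99.7 CPM in day-2 libraries, with a log2 fold of 0.94 ± 0.18 (SE; adjusted p = 1.5e-04). None of these 3 overlapped between the sorts. The classes of the cells differed too, with 272 NSC-like, 2 neuroblast-like and 0 progenitor-like cells among 349 in the day-60 sort, and 5 NSC-like, 131 neuroblast-like and 44 progenitor-like cells among 220 in the day-2 sort. NSC-like markers summed to 51682 to 57525 CPM in day-60 and 1804 to 5296 CPM in day-2 libraries. The part of that shift in the result was not tested, and age (16 to 19 weeks against 8 to 10 weeks) and time since tamoxifen cannot be told apart. The day-60 tables name a flow cell and the day-2 tables name none, so sequencing run cannot be told apart from them either. Library totals alone, which put the median of all genes at -0.19, gave 4 higher and 41 lower, and without day-2 library 3 the counts were 4 higher and 32 lower. Without the wells of the Ttr cluster 9 were higher and 43 lower.

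In the mixed day-60 sort, mature neuron-like cells stood far above oligodendrocyte-like cells. Of 70 genes tested 40 were higher and 1 lower (limma voom), where 33.1% of 3219 genes were called higher and 31.4% lower. The median log2 fold was 0.63 over the members and 0.02 over all genes. Complex V had 13 higher of 15, complex IV 8 of 11, complex III 4 of 6 and complex II 2 of 3. Complex I had 13 higher of 34, near the share over all genes, and the 1 lower gene belongs to it. Its genes Ndufa9, Ndufb2, Ndufb4 and Ndufs4 met the filter in fewer than 2 libraries of one class. Of these 4 genes 2 were called, so those calls are no support. Cox5a, a nuclear subunit on the matrix side of complex IV, had 871, 669, 678 and 558 CPM in mature neuron-like and 159.9, 209.7, 173 and 149.7 CPM in oligodendrocyte-like cells of the 4 libraries. The classes were far apart, with a log2 fold of 1.82 ± 0.19 (SE; adjusted p = 2.6e-11). Ndufa4 had 282, 197, 277 and 244 CPM in mature neuron-like and 72.6, 48.3, 83.2 and 83.002 CPM in oligodendrocyte-like cells, and a log2 fold of 1.54 ± 0.27 (SE; adjusted p = 3.2e-06). Atp5g3 had 1305, 1306, 1059 and 1194 CPM in mature neuron-like and 403, 404, 334 and 417 CPM in oligodendrocyte-like cells, with the fold given before, and Atp5b had 1336, 1269.6, 1058 and 1170.3 CPM in mature neuron-like and 447, 363, 372 and 361 CPM in oligodendrocyte-like cells (log2 fold 1.42 ± 0.13 SE, adjusted p = 2.8e-12). Neither gene overlapped between the classes. Ndufa3, a small accessory subunit of complex I, was the gene called lower, at 122, 160.1, 111 and 80.9 CPM in mature neuron-like and 189, 104.7, 186 and 122 CPM in oligodendrocyte-like cells, with a log2 fold of -0.63 ± 0.28 (SE; adjusted p = 0.043) and overlapping libraries. This call was lost under library totals, without the library block, without the filter on low values, and without library 1, 3 or 4. The labels give no tissue per well, so cells of the olfactory bulb and of the subependymal zone cannot be told apart here. Nor do they say which wells held tdTomato cells or O4-stained cells, or the age of each within 8 to 19 weeks. The classes may thus differ in tissue, sort gate and age, which the library block does not remove.

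NSC-like cells of the day-60 sort and of the Troy-GFP sort, 272 and 151 cells, were compared as the same class reached by lineage tracing and by the Troy reporter. Of 74 genes tested 0 were higher and 0 lower by limma voom after adjustment, where 0.614% of 5703 genes were called higher and 0.701% lower, and 7 were higher and 1 lower at an unadjusted p below 0.05. The members' median log2 fold was 0.18, and that of all genes -0.01. The folds lay between -0.43 and 0.70 with a median SE of 0.21, and none of them passed. Cox7a2 had 168, 183, 165 and 154 CPM in day-60 and 109, 129, 139 and 101 CPM in Troy-GFP libraries, without overlap, and a log2 fold of 0.48 ± 0.19 (SE; adjusted p = 0.26) that did not pass. Without day-60 library 4, 1 gene was called. The cluster led by Crym held 146 of the day-60 cells and 66 of the Troy-GFP cells, and these sorts differ in age, mouse line, tamoxifen and sex.

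Genes of neighbouring pathways were read from lists drawn up with earlier results of these data known, so their counts are descriptions, to be read against the shares over all genes. Those were 28.3% higher and 31.5% lower in Ki67-RFP over Troy-GFP cells, 34.8% higher and 32.8% lower in day-60 over day-2 cells, and 33.1% higher and 31.4% lower in mature neuron-like over oligodendrocyte-like cells. Fatty acid oxidation ran against the respiratory chain, with 0 higher and 12 lower of 14 genes tested in Ki67-RFP over Troy-GFP cells and 12 higher and 0 lower of 12 in day-60 over day-2 cells. Its leading gene was Cpt1a, which admits long-chain fatty acids to mitochondria (log2 fold -3.67 in Ki67-RFP over Troy-GFP cells and 3.81 in day-60 over day-2 cells). Glycolysis did likewise, with 0 higher and 9 lower of 14 in Ki67-RFP over Troy-GFP cells and 14 higher and 0 lower of 14 in day-60 over day-2 cells, led by Aldoc, which is also an NSC-like marker here (-7.05 and 5.59 in these 2 comparisons). In mature neuron-like over oligodendrocyte-like cells, 13 of 13 glycolysis genes tested were higher, led by Pfkp (5.97). Of the 15 fatty acid oxidation genes only 3 passed the filter there, and these 3 were lower, led by Hadh (-4.72). Whether genes of these or the other neighbouring lists met the filter through 1 group alone was not checked. List counts and folds are therefore no support, in this contrast or the others. The citric acid cycle list had 1 higher and 8 lower of 20 in Ki67-RFP over Troy-GFP cells, 8 higher and 2 lower of 20 in day-60 over day-2 cells, and 11 higher and 1 lower of 16 in mature neuron-like over oligodendrocyte-like cells.

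Mitochondrial ribosome and transcription genes had 27 higher and 1 lower of 81 in Ki67-RFP over Troy-GFP cells and 6 higher and 33 lower of 75 in day-60 over day-2 cells, and 0 higher and 3 lower of 12 in mature neuron-like over oligodendrocyte-like cells. In Ki67-RFP over Troy-GFP cells the share of this list called higher was near that over all genes, and the share called lower was below it. Import and chaperone genes had 13 higher and 1 lower of 24 in Ki67-RFP over Troy-GFP cells, among them Timm8b, an import chaperone of the intermembrane space (1.46). The 1 lower gene was Chchd10, a cristae protein (-5.54), which stood higher in mature neuron-like over oligodendrocyte-like cells (6.30). Neither fold is support, since passage of the filter through 1 group alone was not checked. Assembly factors had 7 higher and 2 lower of 29 in Ki67-RFP over Troy-GFP cells and 5 higher and 4 lower of 25 in day-60 over day-2 cells, with Cox10, an enzyme needed to make the haem of complex IV, at -2.13 and 3.57. The shares of assembly factors called higher or lower were below those over all genes in both comparisons. Among electron and nucleotide carriers, 6 were higher and 5 lower of 13 in Ki67-RFP over Troy-GFP cells, and Atpif1, the inhibitor of ATP synthase, led them (1.75). Of 8 regulators tested, 1 was higher and 2 lower in Ki67-RFP over Troy-GFP cells. Ppargc1a, the coactivator PGC-1α known for driving mitochondrial biogenesis, was at -4.25 in Ki67-RFP over Troy-GFP cells and at 4.31 in day-60 over day-2 cells, opposite to the median of the subunits in both comparisons. In mature neuron-like over oligodendrocyte-like cells Ppargc1a was at 3.99, in the direction of the subunits' median (0.63). There, only 1 of the 10 regulators passed the filter. Whether Ppargc1a passed it through 1 group alone was not checked in any of these comparisons, so its folds are no support.

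**Figure D5:**
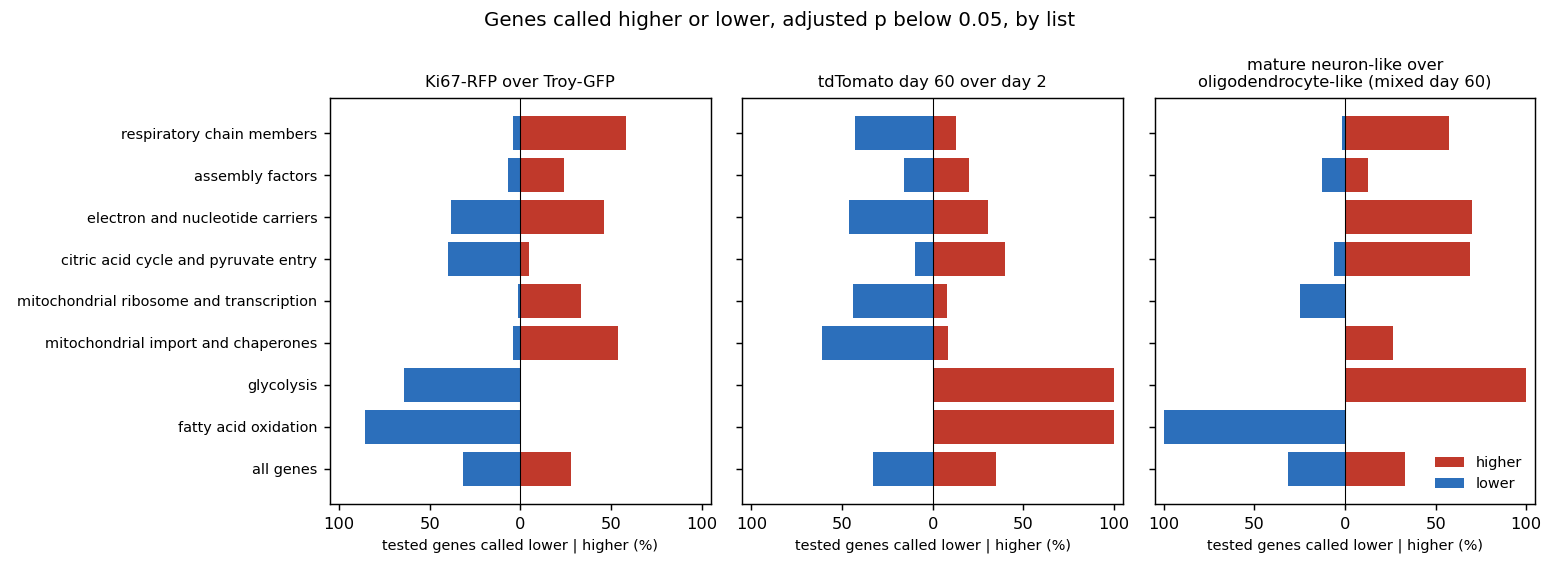
Percent of tested genes called higher (right, red) or lower (left, blue) at an adjusted p below 0.05, by gene list, in 3 comparisons. Respiratory chain, import and mitochondrial ribosome lists have more genes called higher than lower in Ki67-RFP over Troy-GFP cells and the glycolysis and fatty acid oxidation lists more called lower, with the sides exchanged in day 60 over day 2.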

How the data were processed

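Single cells were sorted into 384-well plates, read by SORT-seq on a NextSeq 500 and aligned with BWA 0.6.2-r126 to mm10, per the submitters' processing notes and the labels' protocols. The deposited values are estimated transcripts per gene and well: nearly all equal the correction of a whole number of distinct barcodes for collisions among 256 barcodes, with 11 of 4801006 values above 0 that do not. They are not whole counts, so limma voom 3.58.1 in R 4.3.3 replaced a count model. Depth per library is given with the results. Wells with at least 1000 transcripts outside the 87 spike-in rows counted as cells. Each plate well was meant for 1 cell, so no doublet caller was run.

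Cells were summed per library, or per library and class with at least 5 cells. A gene was tested where 4 or more libraries reached what 10 transcripts are worth in a library of median size, with 15 or more transcripts altogether. Levels in CPM are scaled by library totals, and log2 folds by the trimmed-mean-of-M-values (TMM) method, which sets extreme genes aside. Contrasts between classes of 1 sort had the library as a block. P-values were adjusted over all genes tested (Benjamini-Hochberg, threshold 0.05), and the procedure was tested on simulated data. Classes came from Leiden clustering (resolution 1, 15 neighbours, 30 components, 2000 variable genes; scanpy 1.11.5).

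The 91 genes and all lists were chosen with earlier results of these data known. Named were the 3 called members with the highest and the 3 with the lowest fold in each comparison, the 3 most abundant of each complex, and listed isoforms and catalytic subunits. Ndufa1, Cox7b and Ndufb11, and the levels in the Ttr cluster, were picked after their values were seen. Groups were taken from the labels. Alternatives were other scalings, no filter on low genes, a minimum of 2000 transcripts, uncorrected barcodes, thinning to 1000, resolution 0.6, cell cycle genes kept in the clustering, other blocks, all 7 sorts in 1 fit, 1 flow cell, and each library left out. Leaving out ribosomal protein genes or the Ttr and Adh1 clusters, and, for the summed shares, the cells' median, the higher minimum and uncorrected barcodes, were chosen after seeing the data. Promoter sequences are RefSeq's (GRCm38.p6), found for 76 of 91 members, and gene positions are those of GENCODE M21 (mm10).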

Additional observations from a re-analysis of the deposited data

Results flagged for a closer look

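Within groups of 4 libraries, 14 of 284 sets held 1 library far from the other 3 by Dixon's criterion. Chance alone marks about 1 set in 20, and 14 of 284 is near that share. No explanation was tested for any of them.

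In the day-60 sort, library 1 had 397 CPM of Atp5g1, against 144 to 183 CPM in the other 3, and this library held 7 of the 12 wells of the Ttr cluster, where Atp5g1 stood at 1403 CPM. Library 2 of the same sort had 109 CPM of Ndufv1, against 84.6 to 87.2 CPM. NSC-like cells of day-60 library 4 gave 1.18% of their transcripts to the 91 genes, against 1.39% to 1.42% in the other 3.

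In the Prom1/CD24 sort, the shallowest, library 1 had 209.5 CPM of Cox7a2, against 400.1 to 438 CPM, and library 3 had 386 CPM of Uqcrq, against 209.6 to 235 CPM. In the mixed day-60 sort, library 1 stood high for Atp5a1 (579.2 CPM, against 516 to 526 CPM) and for Cox7a2 (310.3 CPM, against 252 to 258 CPM), and library 3 stood low for Ndufs1 (166 CPM, against 198.8 to 201 CPM). In the day-2 sort, library 1 stood high for Ndufs6 (183 CPM, against 110.5 to 122 CPM) and for Uqcrc2 (274 CPM, against 200.1 to 207 CPM).

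In the GLAST/EGF sort, library 3 gave 0.0621% of its transcripts to complex II, against 0.0478% to 0.0502% in the others, and library 2 had 452 CPM of Ndufc2, against 509 to 520.1 CPM. Ki67-RFP library 2 had 200.4 CPM of Ndufaf7, against 147 to 156 CPM. Troy-GFP library 4 had 159 CPM of Cox5b, against 230.4 to 235 CPM.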

How the results depend on the processing

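Of 631 values of named members under the alternatives, 563 kept their direction and their side of the threshold, 68 kept only the direction and 0 changed it. A named member that fell below the filter under an alternative gave no value there and is not among the 631. Thinning to 1000 transcripts per cell leaves few transcripts and fewer members above the filter: it called 13 of 49 in Ki67-RFP over Troy-GFP cells, 15 of 52 in day 60 over day 2, 9 in day 2 over Ki67-RFP, 1 of 36 in GLAST/EGF over Troy-GFP, 0 of 3 in progenitor-like over NSC-like, 0 of 22 and 5 of 16 in neuroblast-like over progenitor-like cells of the Ki67-RFP and day-2 sorts, and 5 of 11 in mature neuron-like over oligodendrocyte-like cells. It gave no value for the NSC-like comparison. GLAST/EGF over Troy-GFP called 21 under library totals and 8 with no filter, in 1 fit of all sorts and within 1 flow cell, and 7 to 15 with each library left out. Day 2 over Ki67-RFP called 20 in 1 fit of all sorts. Progenitor-like over NSC-like called 31 of 88 with no filter. With each library left out, it called 12 to 14, neuroblast-like over progenitor-like 4 to 7 (Ki67-RFP) and 12 to 26 (day 2), mature neuron-like over oligodendrocyte-like 33 to 39, and the NSC-like comparison 0 to 1. The cause of these moves was not tested.

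Replicate numbers do not pair the libraries (correlations of same-numbered deviations from -0.08 to 0.07). With the replicate number as a block 47 members were called in Ki67-RFP over Troy-GFP, 44 in day 60 over day 2, 33 in day 2 over Ki67-RFP, 10 in GLAST/EGF over Troy-GFP and 0 in the NSC-like comparison. Without the library block the class contrasts called 20, 5, 23 and 39, in place of 19, 7, 24 and 41.

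Shares also depend on the denominator. Outside ribosomal protein genes the 91 genes held 2.50% in day-2, 2.21% in Ki67-RFP and 1.73% in GLAST/EGF cells. As medians of single cells the shares were 1.36% in mixed day-60, 2.00% in day-2, 1.94% in Ki67-RFP, 1.497% in GLAST/EGF, 1.71% in Prom1/CD24 and 1.21% in Troy-GFP cells, and from uncorrected barcodes 1.40% in Troy-GFP cells. Depth limits the class contrasts most, where 67 to 75 members passed the filter.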
